A study of Mus musculus with 9 samples.

Results

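The dual oxidases and their maturation factors are 4 genes, Duox1, Duox2, Duoxa1 and Duoxa2, chosen by symbol from a table of 33924 genes measured by RNA sequencing in whole mouse thyroid. All 4 were found in the table and all 4 passed the filter on low counts. The 9 libraries fall into 3 groups of 3: thyroids labelled wild type, thyroids labelled with a knockout of Arid2 and thyroids labelled with a knockout of Smarcb1, untreated as far as the labels say. Arid2 and Smarcb1 encode subunits of the SWI/SNF chromatin remodelling complexes, Arid2 in the PBAF form and Smarcb1 in the common core. The labels give no strain, age, allele or promoter of a Cre driver for any group. Nor do they state that replicates are different animals, so a p-value here speaks only of the spread among these libraries.

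Thyroid hormone is made at the apical surface of the follicle cell, where iodine is attached to thyroglobulin with the help of hydrogen peroxide. The peroxide comes from the dual oxidases Duox1 and Duox2, membrane enzymes that pass electrons from NADPH to oxygen and carry a peroxidase-like domain. Each oxidase needs a maturation factor to leave the endoplasmic reticulum, and the usual partner is Duoxa1 for Duox1 and Duoxa2 for Duox2. In the human thyroid, inherited loss of DUOX2 or DUOXA2 is a known cause of congenital hypothyroidism, and DUOX1 is also known from airway epithelium.

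The 4 genes lie side by side on mouse chromosome 2 in 2 head-to-head pairs, in the order Duox2, Duoxa2, Duoxa1, Duox1, over 68.7 kb of the GRCm38 assembly (GENCODE M21 annotation). The starts of Duox2 and Duoxa2 are 451 bases apart there (673 in RefSeq), and those of Duoxa1 and Duox1 are 1942 bases apart in both annotations. Since each oxidase is divergently transcribed beside its own factor, the start regions of all 4 genes are shown, from 250 bases before to 50 bases after the start (RefSeq, GRCm38.p6), each 5′ to 3′ on the strand of its gene. Capitals mark, on either strand, the TATA box TATAAA, the GC box GGGCGG and the CCAAT box CCAAT.
Duox2, minus strand, chr2:122298178-122298477: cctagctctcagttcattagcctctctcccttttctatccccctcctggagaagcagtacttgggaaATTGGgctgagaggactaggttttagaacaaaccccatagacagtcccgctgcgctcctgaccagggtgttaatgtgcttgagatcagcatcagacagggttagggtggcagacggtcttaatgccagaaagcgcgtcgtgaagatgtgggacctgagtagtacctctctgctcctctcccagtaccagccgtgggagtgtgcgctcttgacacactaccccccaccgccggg
Duoxa2, plus strand, chr2:122298650-122298949: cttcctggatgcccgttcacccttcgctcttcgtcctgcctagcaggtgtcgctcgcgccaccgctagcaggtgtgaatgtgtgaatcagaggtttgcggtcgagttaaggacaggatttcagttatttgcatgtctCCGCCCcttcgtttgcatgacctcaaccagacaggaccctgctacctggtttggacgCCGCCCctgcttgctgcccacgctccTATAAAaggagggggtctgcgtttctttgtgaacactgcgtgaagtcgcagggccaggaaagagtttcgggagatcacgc
Duoxa1, minus strand, chr2:122313681-122313980: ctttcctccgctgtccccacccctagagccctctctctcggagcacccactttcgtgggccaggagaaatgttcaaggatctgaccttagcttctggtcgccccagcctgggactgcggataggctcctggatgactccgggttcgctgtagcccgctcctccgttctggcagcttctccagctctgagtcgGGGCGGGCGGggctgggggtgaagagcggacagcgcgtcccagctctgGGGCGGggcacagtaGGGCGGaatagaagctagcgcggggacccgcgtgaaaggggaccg
Duox1, plus strand, chr2:122315422-122315721: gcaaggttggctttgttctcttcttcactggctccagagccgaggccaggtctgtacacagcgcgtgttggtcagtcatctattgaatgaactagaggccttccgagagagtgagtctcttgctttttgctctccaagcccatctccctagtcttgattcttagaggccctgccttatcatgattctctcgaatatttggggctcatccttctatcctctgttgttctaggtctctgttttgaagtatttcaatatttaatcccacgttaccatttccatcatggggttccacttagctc

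The 4 start regions differed in composition. That of Duoxa1 was 65.7% G or C with 22 CpG dinucleotides and held 4 GC boxes, of which a pair overlap each other, and no TATA box. That of Duoxa2 was 56.7% G or C with 19 CpG and held 1 TATA box and 2 GC boxes. That of Duox2 (55.3% G or C, 10 CpG) held 1 CCAAT box, and that of Duox1 (46.7% G or C, 6 CpG) held none of the 3 motifs. Among 32851 mouse start regions of the same length, 13.6% hold a TATA box, 35.7% a GC box and 37.4% a CCAAT box. Searched the same way on both strands, the AP-1 site TGANTCA matched once in the Duoxa2 window and in no other of the 4 (7.81% of all windows). The cAMP response element core TGACGT (7.51%), the NK2-class core CAAGTG (13.6%), the forkhead core TGTTTA (13.4%) and the E-box CACGTG (7.15%) matched in none of the 4. A match is a description of these letters only.

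Neighbouring annotations limit how exactly reads can be assigned. In GENCODE M21 the 3′ ends of Duoxa1 and Duoxa2 overlap, with 682 shared exonic bases, which are 17.1% of the exonic bases of Duoxa1 and 42.8% of those of Duoxa2. In RefSeq it is the gene spans of Duoxa1 and Duox1 that overlap, by 754 bases. The span of either or both genes therefore reaches beyond the start used for its start region above, which need not be its only annotated start. No source used here says whether reads were counted by strand, so the counts of Duoxa1, Duoxa2 and Duox1 are uncertain to the extent of reads from these stretches.

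The libraries held 33666251 to 89553766 counts, and the Arid2-labelled ones were the deepest. As a check of the labels, Arid2 was measured at 94.6, 77.7 and 59.9 CPM (counts relative to library size after TMM scaling) where Arid2 is the labelled gene, against 68.9, 75.0 and 67.8 CPM in wild type (exact two-sided permutation p = 0.7, n = 3 against 3), and Smarcb1 at 47.5, 53.7 and 59.4 CPM where it is the labelled gene, against 65.9, 71.7 and 69.3 CPM (exact p = 0.1, the smallest possible). Smarcb1 was also below wild type in the libraries labelled with the Arid2 knockout, at 57.3, 59.4 and 64.6 CPM (exact permutation p = 0.1). Between the knockout groups Smarcb1 overlapped (exact permutation p = 0.3), so its lower level is not particular to its own label. Counts over a whole gene also take in exons that a deletion leaves, so the groups go by their labels, Arid2-labelled and Smarcb1-labelled. All 5 thyrocyte markers, Tg and Pax8 among them, were detected in every library, with a summed level of 247807 to 320879 CPM in wild type, 246452 to 324403 CPM in the Arid2-labelled and 228216 to 303010 CPM in the Smarcb1-labelled libraries. Nearly all of that sum is Tg, for example 318001 of 320879 CPM in wild-type replicate 1. The sum therefore does not show whether the other thyrocyte markers were alike between groups. Several libraries stood apart. Arid2-labelled replicate 1 and Smarcb1-labelled replicate 2 carried the thymocyte gene Rag1 at 502.0 and 52.6 CPM (0.145 CPM or less in the other libraries), and Smarcb1-labelled replicate 3 carried Xist at 809 CPM with no count of the Y-linked Ddx3y, against 2.60 CPM or less of Xist elsewhere. The parathyroid hormone gene Pth was nearly absent from Arid2-labelled replicate 3 (0.129 CPM) and wild-type replicate 3 (0.0297 CPM), where the other 7 libraries had 1199 CPM or more.

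In wild-type thyroid the second pair was the more abundant. Per kb of the longest coding transcript, Duoxa2 had the highest level at 16.1 ± 2.69 CPM per kb (mean ± SD, n = 3), followed by Duox2 at 9.80 ± 1.85, Duoxa1 at 7.18 ± 2.17 and Duox1 at 1.04 ± 0.513 CPM per kb. Duoxa2 was above the other 3 in each library, and Duox1 was below them in each. Duox2 and Duoxa1, next to each other in that order, overlapped between libraries. The level of Duoxa1 depends on which of its 7 annotated transcripts sets the length: per kb of all its exons together it was 4.46 CPM, against 8.85 for Duox2. Duox2 exceeded Duox1 by 19.0, 10.6 and 5.11 times per kb in wild-type replicates 1, 2 and 3. By average level not divided by length, over the 9 libraries, Duox2 lay above 80.5% of the 17079 genes tested. Duoxa2 lay above 61.1%, Duoxa1 above 43.4% and Duox1 above 28.5%, so the order of Duox2 and Duoxa2 differs from that per kb. Duox1 rests on 59 to 286 counts per library, and its smallest count of 59 has a 95% Poisson interval of 44.9 to 76.1, which covers counting error only.

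**Figure D1:**
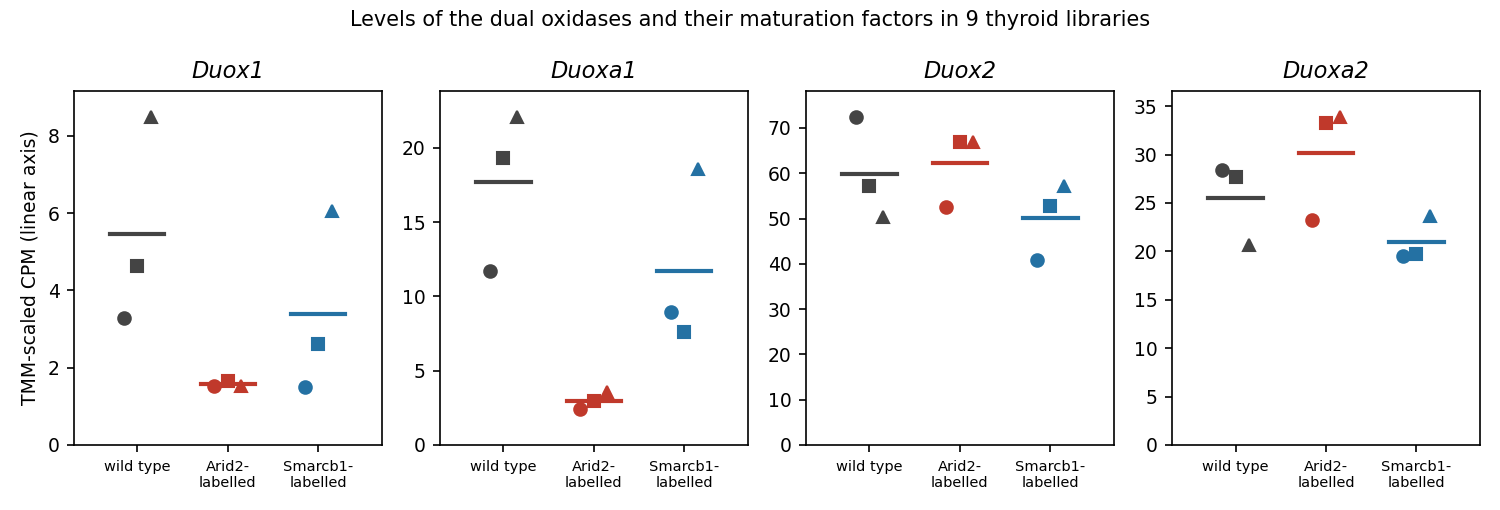
Levels of Duox1, Duoxa1, Duox2 and Duoxa2 in TMM-scaled CPM on linear axes that start at 0, by group; circles, squares and triangles are replicates 1, 2 and 3 and bars are group means. All Arid2-labelled values of Duoxa1 lie between 2.39 and 3.57 CPM, below the lowest wild-type value of 11.7 CPM, while the values of Duox2 overlap.

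Duoxa1, the maturation factor of Duox1, fell in the Arid2-labelled thyroids. The 3 wild-type values were 11.7, 19.4 and 22.1 CPM, and the 3 Arid2-labelled values were 2.39, 2.94 and 3.57 CPM. The groups did not overlap, and the highest Arid2-labelled library lay far under the lowest wild-type one. The fall was 5.98-fold, or -2.58 as a log2 fold change (SE 0.38, 95% interval -3.44 to -1.72; adjusted p = 0.0269 by edgeR's quasi-likelihood test with Benjamini-Hochberg adjustment over all 17079 genes). In this comparison 0.556% of all genes passed in either direction, 0.322% as lower and 0.234% as higher. Of the 4 genes 1 passed, with 2 at an unadjusted p under 0.05. In whole tissue, fewer cells that express a gene and less of its RNA per cell cannot be told apart.

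Duox1, the oxidase that Duoxa1 serves, was lower in the Arid2-labelled thyroids without passing the test. Wild-type values were 3.28, 4.64 and 8.48 CPM, and Arid2-labelled values were 1.53, 1.64 and 1.53 CPM. These groups did not overlap either, and the Arid2-labelled values lay close together while the wild-type values were spread widely. The log2 fold change was -1.80 (SE 0.51, 95% interval -2.95 to -0.65, adjusted p = 0.148 by edgeR). By the DESeq2 Wald test it passed (log2 fold change -1.82, adjusted p = 0.00701). For 2 of the 4 genes the groups did not overlap, both lower, against 25.5% of all tested genes in either direction, 12.6% as lower and 12.9% as higher.

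The second pair differed little. Duox2, the main peroxide source of the thyroid, had wild-type values of 72.4, 57.1 and 50.3 CPM and Arid2-labelled values of 52.6, 66.9 and 66.9 CPM. Its log2 fold change was 0.05 (SE 0.18, adjusted p = 0.917 by edgeR), with a 95% interval from 0.788-fold to 1.36-fold. Duoxa2, its maturation factor, had wild-type values of 28.4, 27.7 and 20.6 CPM and Arid2-labelled values of 23.2, 33.3 and 33.9 CPM (log2 fold change 0.24, SE 0.18, adjusted p = 0.590), with a 95% interval from 0.888-fold to 1.56-fold. For both genes the libraries of the groups overlapped, and the intervals leave out a change of the size seen for Duoxa1.

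The call of Duoxa1 rests on all 6 libraries compared: without any 1 of them the adjusted p was between 0.0530 and 0.123, while the log2 fold change stayed between -2.80 and -2.39. Without both libraries that carried thymocyte markers it was -2.48 (adjusted p = 0.0586). With the mean log2 level of the 5 thyrocyte markers, each weighted equally, as a covariate it was -2.83 (adjusted p = 0.0489), and after removal of the GC trend of every library it was -2.68 (adjusted p = 0.0228). Some marker sums of other cell types did not overlap between these groups either. Among single genes, 25.5% of all tested did not overlap in this comparison. The summed level of 6 endothelial markers was 650 to 790 CPM in the Arid2-labelled libraries and 375 to 499 CPM in wild type, and that of 6 fibroblast markers was 1935 to 2318 CPM and 2424 to 2726 CPM. That of 6 oesophagus and squamous epithelium markers was 41.2 to 63.8 CPM and 33.4 to 39.3 CPM, with Krt13 at 0 in wild-type replicate 3. Scgb3a1, an airway secretory gene, stood at 13.1 to 23.0 CPM in the Arid2-labelled libraries and at 0.534 CPM or less in wild type, while the summed level of all 10 airway markers overlapped (59.6 to 263 CPM against 95.2 to 165 CPM). None of the defining endothelial or fibroblast markers was at 0. The part of the endothelial, fibroblast and squamous markers in the fall of Duoxa1 was not tested.

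In the Smarcb1-labelled thyroids 0 of the 4 genes passed against wild type by edgeR, 0 were at an unadjusted p under 0.05 and 0 passed by DESeq2 or limma-voom, where 7.9% of all genes passed by edgeR (2.15% higher and 5.74% lower). All 4 had negative fold changes. Duoxa1 stood at 8.96, 7.58 and 18.6 CPM (log2 fold change -0.60, SE 0.36, 95% interval -1.41 to 0.21, adjusted p = 0.298), and its highest library overlapped the wild-type range. Duox1 stood at 1.50, 2.63 and 6.06 CPM (-0.69, SE 0.50, 95% interval -1.81 to 0.43, adjusted p = 0.384). For both genes replicate 3 was the highest Smarcb1-labelled library by a wide margin. This is the library that carried Xist, and without it the log2 fold change against wild type was -1.10 for Duoxa1 (adjusted p = 0.101) and -1.41 for Duox1 (adjusted p = 0.129). The part of the sex of the animal in these values was not tested.

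Duox2 had Smarcb1-labelled values of 40.8, 52.7 and 57.1 CPM (log2 fold change against wild type -0.25, SE 0.18, adjusted p = 0.363), and Duoxa2 at 19.5, 19.8 and 23.7 CPM (-0.28, SE 0.18, adjusted p = 0.326). The 95% intervals ran from 0.637-fold to 1.10-fold for Duox2 and from 0.618-fold to 1.09-fold for Duoxa2. For none of the 4 genes were the groups apart, against 33.7% of all tested genes (17.1% higher and 16.7% lower). The longest coding transcripts of the 4 genes have 50.1% to 55.6% G or C, and the 5280 tested genes with 50% to 56% had a median log2 fold change of -0.08 in this comparison, against 0.05 over all genes.

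The direct comparison of the knockout groups separates them for Duoxa1. Its level in the Smarcb1-labelled libraries was 3.95 times that in the Arid2-labelled ones (log2 fold change 1.98, SE 0.37, 95% interval 1.14 to 2.82, adjusted p = 0.0141 by edgeR), and all 3 Smarcb1-labelled libraries lay above all 3 Arid2-labelled ones. In this comparison 16.3% of all genes passed in either direction, 6.95% as higher and 9.32% as lower. Of the 4 genes 1 passed and 1 had groups that did not overlap, against 38.8% of all tested genes (18.3% higher and 20.5% lower). It no longer passed when Arid2-labelled replicate 2 (adjusted p = 0.0522) or 3 (0.0543) was left out, or with the level of parathyroid markers as a covariate (log2 fold change 2.24, adjusted p = 0.0670). It did pass without Smarcb1-labelled replicate 3 (1.48, adjusted p = 0.0348). The summed level of the parathyroid markers Pth, Gcm2 and Casr was 6092 to 16992 CPM in the Smarcb1-labelled and 10.6 to 1581 CPM in the Arid2-labelled libraries. Other marker sums that did not overlap between these groups were those of 5 C-cell markers (7848 to 9753 against 3056 to 3762 CPM), 5 brown fat markers (540 to 965 against 1119 to 2070 CPM) and, narrowly, the 6 endothelial markers (399 to 649.7 against 649.9 to 789.6 CPM). The part of these 3 in the result was not tested.

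Duox1 was 2.16 times as high in the Smarcb1-labelled as in the Arid2-labelled libraries, which did not pass (log2 fold change 1.11, SE 0.50, adjusted p = 0.146), and without Smarcb1-labelled replicate 3 the log2 fold change was 0.40. Duoxa2 lay lower and did not pass either (log2 fold change -0.52, SE 0.18, adjusted p = 0.0765), and Duox2 likewise (-0.31, SE 0.18, adjusted p = 0.237). The 5280 tested genes with 50% to 56% G or C had a median log2 fold change of -0.15 in this comparison, against 0.003 over all genes. Duoxa2 passed by the DESeq2 Wald test (adjusted p = 0.0426) and by edgeR without Arid2-labelled replicate 1 (log2 fold change -0.68, adjusted p = 0.0402).

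**Figure D2:**
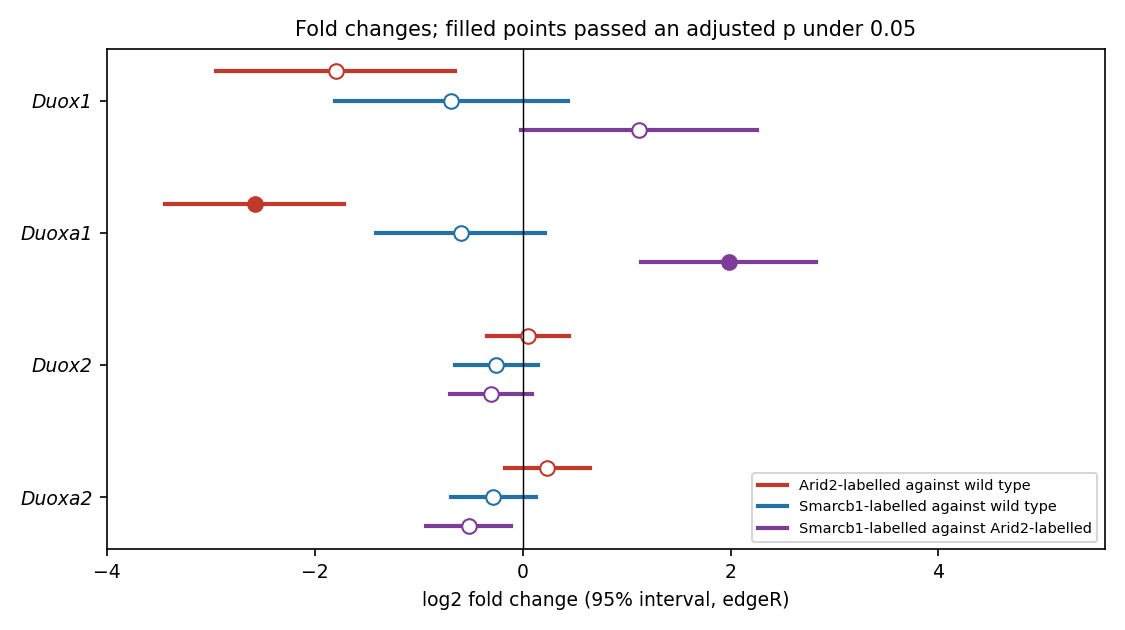
Log2 fold changes of the 4 genes in the 3 comparisons (x axis) with 95% intervals from edgeR; filled points passed an adjusted p under 0.05. Of the points, 1 is filled for Arid2-labelled against wild type (Duoxa1, -2.58) and 1 in that of Smarcb1-labelled with Arid2-labelled (Duoxa1, 1.98).

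Ratios of 2 of the genes within a library do not depend on how libraries are scaled. The ratio of Duoxa1 to Duoxa2 per kb was 0.267, 0.451 and 0.690 in wild type, 0.296, 0.248 and 0.506 in the Smarcb1-labelled libraries, and 0.0664, 0.0571 and 0.0680 in the Arid2-labelled ones. The Arid2-labelled libraries were thus tightly grouped and apart from the other 6. On the log2 scale the mean difference from wild type was -2.78, a 6.86-fold shift of the balance away from Duoxa1 (exact two-sided permutation p = 0.1, the smallest that 3 against 3 allows; adjusted over 12 ratio tests, 0.2). The ratio of Duox1 to Duox2 moved the same way, by -1.75 on the log2 scale, with no overlap (exact p = 0.1, adjusted p = 0.2).

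Within the first pair the maturation factor was lower relative to its own oxidase. The ratio of Duoxa1 to Duox1 per kb was 7.65, 8.91 and 5.55 in wild type and 3.33, 3.82 and 4.99 in the Arid2-labelled libraries, a mean log2 difference of -0.86 with no overlap (exact permutation p = 0.1, adjusted p = 0.2, n = 3 each). In the Smarcb1-labelled libraries it was 12.7, 6.17 and 6.54, which overlapped wild type (exact p = 0.8). Within the second pair the ratio of Duoxa2 to Duox2 stayed between 1.44 and 1.94 in all 9 libraries. Its mean log2 difference from wild type was 0.17 in the Arid2-labelled (exact p = 0.2) and -0.02 in the Smarcb1-labelled libraries (exact p = 0.8). No ratio test could pass an adjusted p of 0.05 with these group sizes.

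**Figure D3:**
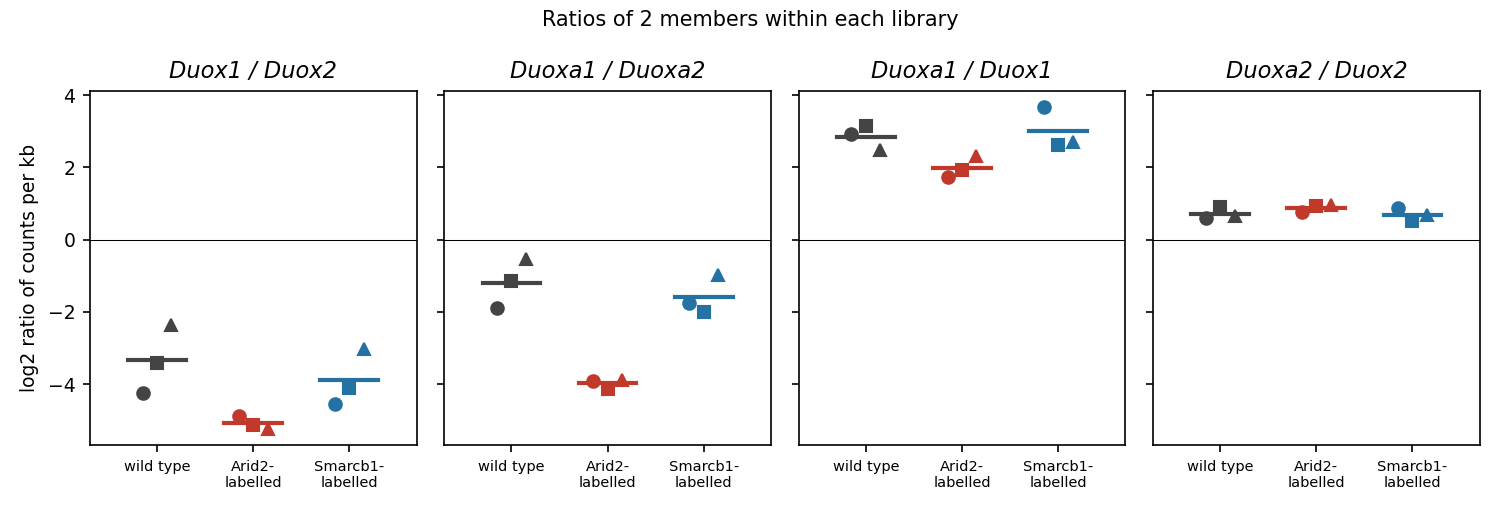
Log2 ratios of counts per kb for 4 pairs of genes within each library (y axis), by group; circles, squares and triangles are replicates 1, 2 and 3 and bars are group means. The Arid2-labelled libraries sit apart from the wild-type libraries for Duoxa1 / Duoxa2 (0.0571 to 0.0680 against 0.267 to 0.690 before the log), and Duoxa2 / Duox2 stays between 1.44 and 1.94 in all 9 libraries.

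The libraries also differed within groups, pair by pair. In wild type, replicate 3 had the highest Duox1 and Duoxa1 (8.48 and 22.1 CPM) together with the lowest Duox2 and Duoxa2 (50.3 and 20.6 CPM), and replicate 1 had the lowest Duox1 and Duoxa1 with the highest Duox2 and Duoxa2. The 2 pairs therefore ran in opposite order over the wild-type libraries. In the Smarcb1-labelled group replicate 3 was the highest library for all 4 genes. The spread was wide for the first pair, with a coefficient of variation of 49.4% for Duox1 and 30.2% for Duoxa1 in wild type, and narrower for the second, with 18.9% for Duox2 and 16.7% for Duoxa2. In the Arid2-labelled group that of Duox1 was 4.25%, on 95 to 139 counts. Counting error alone gives a 95% half-width of about 20.7% for the smallest count. Such a half-width is a wider measure than a coefficient of variation, so these values do not compare directly.

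**Figure D4:**
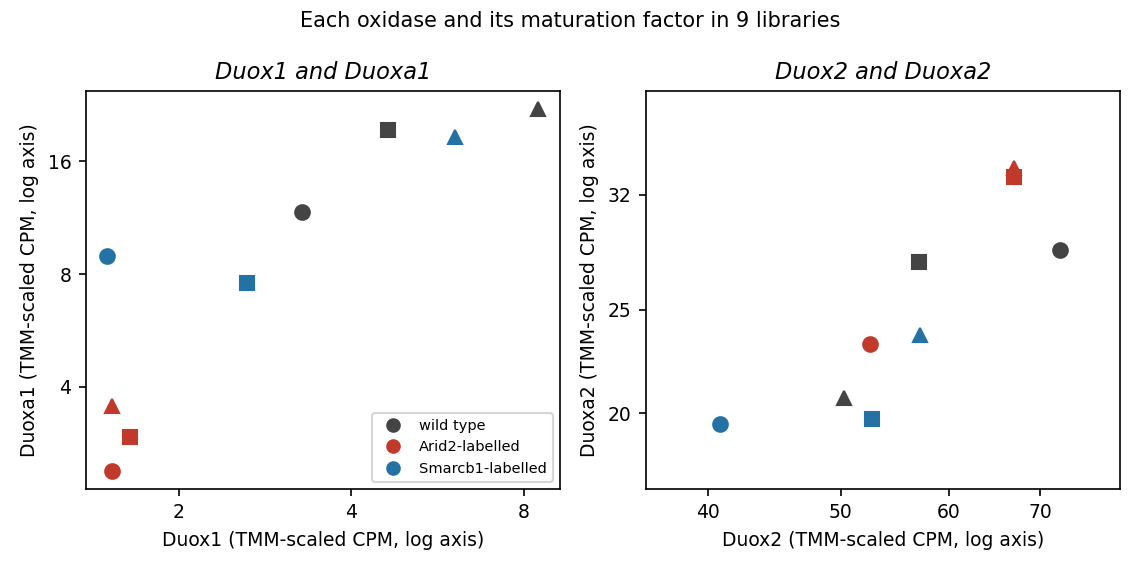
Each oxidase (x axis) against its maturation factor (y axis) in 9 libraries, in TMM-scaled CPM on log axes; colours are groups and circles, squares and triangles are replicates 1, 2 and 3. The Arid2-labelled libraries form the low corner of Duox1 and Duoxa1 (at most 1.64 and 3.57 CPM) and overlap the other groups for Duox2 and Duoxa2, with replicates 2 and 3 at the highest Duoxa2 values (33.3 and 33.9 CPM).

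The genes next to the cluster did not follow a common course. Sord, the gene of sorbitol dehydrogenase, lies 13.9 kb beyond the end of Duox2. Wild-type values were 191, 190.2 and 209.6 CPM and Arid2-labelled values were 459, 550.3 and 569 CPM, and it rose there (log2 fold change 1.42, SE 0.22, adjusted p = 0.0290 by edgeR). Without any 1 of the 6 libraries compared that call ended (adjusted p from 0.0593 to 0.133). The Smarcb1-labelled values of Sord were 358, 288 and 185 CPM (log2 fold change against wild type 0.49, adjusted p = 0.166), lower than the Arid2-labelled ones (-0.92, adjusted p = 0.0246; lost with the parathyroid covariate, in a fit of these 6 libraries alone, and without Arid2-labelled replicate 2 or 3). Shf, an adaptor protein gene 0.920 kb beyond the end of Duox1, did not pass by edgeR in the Arid2-labelled (log2 fold change -0.45, adjusted p = 0.353) or Smarcb1-labelled libraries (-0.69, adjusted p = 0.0743). In the latter it passed by DESeq2 (adjusted p = 0.0136) and with the thyrocyte covariate (0.0426), and its sign turned with the GC trend removed (0.42). Slc28a2, a nucleoside transporter gene, had Arid2-labelled values of 12.6, 3.43 and 5.09 CPM against 0.940, 0.455 and 2.52 CPM in wild type, which did not pass by edgeR (log2 fold change 2.43, adjusted p = 0.160) and did by DESeq2 (adjusted p = 0.00491), and it was highest in the library with the most Rag1. Of the other 3 neighbouring coding genes, 4933406J08Rik had no counts, Trim69 was at 0.241 CPM or less in every library and Gm14085 did not pass in any of the 3 comparisons.

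**Figure D5:**
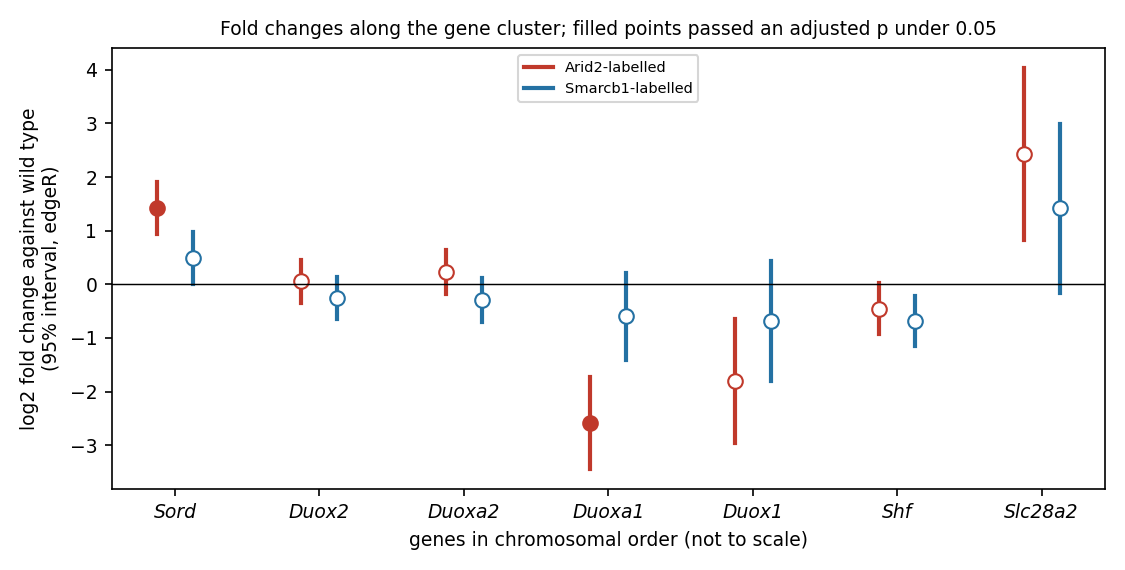
Log2 fold changes against wild type (y axis, 95% intervals, edgeR) of the 4 genes and 3 neighbours in chromosomal order, not to scale; filled points passed an adjusted p under 0.05. In the Arid2-labelled libraries Sord (1.42) lies above 0, Duox2 (0.05) and Duoxa2 (0.24) near 0, and Duoxa1 (-2.58) and Duox1 (-1.80) below it.

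Other genes of the peroxide and hormone system were read from 6 lists with 72 tested genes. In the Arid2-labelled libraries 0 of the 72 passed by edgeR, 14 had an unadjusted p under 0.05 and 8 passed by DESeq2, and their median log2 fold change was -0.11 against 0.02 over all genes. Over all 17079 genes in this comparison, an unadjusted p of 0.0496 by edgeR stood at rank 2536. No share of all genes is given for DESeq2 here or below, so its counts have no background beside them. Tg, the gene of thyroglobulin, had a fold change on the log2 scale of -0.01 (SE 0.29, adjusted p = 0.994). Slc5a5, the iodide symporter, stood at 105, 143 and 134 CPM against 389, 533 and 478 CPM without passing by edgeR (log2 fold change -1.87, SE 0.43, adjusted p = 0.0944). It passed by DESeq2 (adjusted p = 0.000121), in a fit of these 6 libraries alone (0.0133) and without Smarcb1-labelled replicate 3 (0.00805). In this group the libraries of Slc5a5, as those of Duoxa1 and Duox1, lay below all wild-type libraries. This was not particular to these genes: other genes of the lists lay below all wild-type libraries too, and some lay above. Of all tested genes, 12.6% were lower without overlap in this comparison and 12.9% higher. In Smarcb1-labelled replicate 3, where Duoxa1 and Duox1 were highest of their group, Slc5a5 was lowest, at 113 CPM against 386 and 462 CPM.

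By role, the 5 thyroid transcription factors had a median log2 fold change of -0.19 with the Arid2 label; edgeR called 0, DESeq2 called 1 (Foxe1, adjusted p = 0.00973), and 1 had an unadjusted p under 0.05. Pax8 (-0.19, adjusted p = 0.598), Nkx2-1 (-0.34, adjusted p = 0.358) and Foxe1 (-0.72, adjusted p = 0.122) did not pass by edgeR. The 23 tested genes of thyroid hormone production had a median of -0.22. Of these 23, edgeR called 0, DESeq2 called 5, and 7 had an unadjusted p under 0.05 by edgeR. The 9 tested genes of the NADPH oxidase family had a median of -0.05, the 9 of NADPH supply 0.08 and the 23 of peroxide removal -0.14. In the Smarcb1-labelled libraries 7 of the 72 passed against wild type by edgeR, beside 7.9% of all genes by edgeR. By DESeq2 14 passed, for which no share of all genes is given. By edgeR, Foxe1 (-2.19), the oxidase subunit gene Cyba (-0.94), the glutathione peroxidase genes Gpx1 (-1.06) and Gpx4 (-0.80), the peroxiredoxin gene Prdx5 (-0.71) and the pentose phosphate gene Pgls (-1.48) fell and Lrp2 (0.72), an endocytic receptor, rose. Of these 7, 2 passed with the GC trend removed and 2 with the parathyroid covariate, Foxe1 and Pgls in both; Cyba, Gpx1 and Prdx5 lost their calls without Smarcb1-labelled replicate 3. Gpx4 passed in 3 and Lrp2 in 1 of the 9 fits that left out 1 library. Pax8 (-0.48, adjusted p = 0.0763) and Nkx2-1 (-0.44, adjusted p = 0.111) did not pass by edgeR. By DESeq2 both did (adjusted p = 0.0165 and 0.0438), as did Nkx2-1 by edgeR without Smarcb1-labelled replicate 3 (-0.65, adjusted p = 0.0385). Between these groups the parathyroid marker sum (6092 to 16992 against 8.16 to 4320 CPM in wild type) and the fibroblast marker sum (1763 to 2403 against 2424 to 2726 CPM) did not overlap, and the part of the fibroblast markers in these changes was not tested.

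In the direct comparison 11 of the 72 passed by edgeR, beside 16.3% of all genes by edgeR. By DESeq2 20 passed, for which no share of all genes is given. By edgeR, Lrp2 (0.94) and the glutathione peroxidase gene Gpx8 (0.87) were higher, and Foxe1 (-1.48), Cyba (-0.69), Pgls (-1.56), Taldo1 (-0.80), Prdx5 (-0.72), Gpx1 (-0.90) and the extracellular superoxide dismutase gene Sod3 (-2.16) were lower. Of the 11, 4 passed with the GC trend removed, 2 with the parathyroid covariate and 4 in all 9 fits that left out 1 library. Slc5a5 had a fold change of the same sign as Duoxa1 and did not pass by edgeR (1.33, adjusted p = 0.0589). It passed by DESeq2 (adjusted p = 0.00517), with the GC trend removed (1.83, adjusted p = 0.0409) and without Smarcb1-labelled replicate 3 (1.73, adjusted p = 0.00688).

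The genes whose pattern over the 9 libraries was most like that of each gene were taken from 11908 genes with an average of at least 1 on the log2 CPM scale, by Pearson's r of log2 CPM, as a description. The libraries share their groups and tissue, so such values are high for many genes. For Duoxa1 these were Fndc4 (r = 0.96), Tmeff1 (0.95), Aldh1a7 (0.95), Mtap1a (0.94) and Fads3 (0.93). For Duox1 they were Lactb (0.95), Mtap1a (0.91), Scpep1 (0.91), Cilp (0.88) and Duoxa1 itself (0.88), so 1 gene, Mtap1a, stood in both lists. For Duox2 they were Fbxw8, Cdk2ap1, Snx33, Abca3 and Alg12 (each 0.94), and for Duoxa2 Mks1, Zfp467, Npr2, Gga2 and Rdm1 (0.93 to 0.96), with none in common.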

How the data were processed

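Thyroids were flash-frozen, RNA was extracted with TRIzol, and an Illumina TruSeq RNA kit was used for the libraries, per the labels' protocols. The values are raw read counts per gene symbol deposited by the authors without normalization. Tools listed, per the submitters' processing notes, are DESeq2, HTSeq 0.6.1 and STAR 2.4, and the listed build is mm9; their roles, the annotation and the use of strand are not given in the sources used here. Total counts set the precision, and intervals on counts cover counting error only, since reads copied by PCR carry no molecular identifiers.

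Groups came from the genotype labels, with replicates numbered in accession order. All 9 libraries entered 1 fit of 3 group means in edgeR 4.0.16 (R 4.3.3; quasi-likelihood F test, TMM scaling, filterByExpr), with 17079 genes tested, 6 residual degrees of freedom and a call at an adjusted p under 0.05. The standard error is the fold change over the root of F. Per-kb levels use the longest coding transcript of GENCODE M21 (GRCm38, a build other than mm9). Start regions are from RefSeq, which matched all 4 genes by symbol. The edgeR and GC steps were tested on simulated data. Alternatives used DESeq2 1.42.0 and limma 3.58.1; GC content was matched for 97.3% of tested genes and its trend fitted with a spline of 5 degrees of freedom. The genes, lists and tests were chosen with earlier results of these data known. Genes other than the 4 were named by rule: the labelled genes, called genes of the lists (up to 4 each), Tg, Slc5a5, Pax8, Nkx2-1 and Foxe1, the 5 closest patterns and 3 coding neighbours on each side. An item that the rule would name is not reported here.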

Additional observations from a re-analysis of the deposited data

How the results depend on the processing

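No paired analysis was possible because the labels carry no replicate numbers that the groups share. Each fold change of the 4 genes was recomputed under 15 alternatives and 9 fits that left out 1 library. Against wild type, Duoxa1 in the Arid2-labelled libraries passed in 13 of the 15 (not at an adjusted p under 0.01, with its value of -2.58 as before, nor without the 2 libraries with thymocyte markers, -2.48) and in 3 of the 9, with values from -2.80 to -2.39. Duox1 passed there by the DESeq2 Wald test only (-1.82). Duox2, near 0, changed sign with the GC trend removed (-0.0567) and ranged from -0.0581 to 0.21 when 1 library was left out. Between the knockout groups, Duoxa1 passed in 13 of the 15 (not at 0.01, 1.98, nor with the parathyroid covariate, 2.24) and in 7 of the 9 (1.48 to 2.21). Duoxa2 passed there by DESeq2 (-0.52), without the libraries with thymocyte markers (-0.65) and in 1 of the 9 (-0.68 to -0.44). The cause of these changes was not tested. No other call or sign of the 4 genes changed, and no ratio difference moved by more than the spread between replicates. Both small ratio differences of the Smarcb1-labelled libraries from wild type changed sign with 1 library left out, Duoxa1 to Duox1 (-0.19 to 0.34) and Duoxa2 to Duox2 (-0.12 to 0.07), the latter also without the thymocyte-marked libraries (0.06).

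Among the other named genes, Shf in the Smarcb1-labelled libraries changed sign with the GC trend removed (0.42), as did Tg in the Arid2-labelled libraries with the parathyroid covariate (0.000298), the thyrocyte covariate (0.0378), without the thymocyte-marked libraries (0.0109) or with 1 library left out (-0.14 to 0.11). So did Arid2 there without the thymocyte-marked libraries (-0.0703) or with 1 library left out (-0.0343 to 0.28). The number of genes called was 95, 1349 and 2779 in the 3 comparisons (Arid2-labelled and Smarcb1-labelled against wild type, and against each other). It ranged from 8 to 918, 192 to 2782 and 145 to 4335 over the 15 alternatives, and from 5 to 167, 344 to 2538 and 395 to 4411 with 1 library left out. Scaling by other methods moved the median fold change by less than 0.03 (log2). Depth limits Duox1 most, with 59 counts in its smallest library.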
